A study of Homo sapiens with 44 samples.

Results

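The comparison of IL-1β with unstimulated cells used the bulk ATAC-seq libraries of the human colon fibroblast line Ccd18-Co, in which the transposase Tn5 cuts and tags accessible DNA. It set 4 IL1B libraries against 4 unstimulated libraries, out of 44 libraries in 11 groups, and covered all peaks of the shared table, of which 407174 were tested and 209 left out for low coverage. Ccd18-Co is a purchased line that was used up to passage 20, and no gene was edited in any of the groups. All cells were starved of serum for 72 h, the treated cells then received IL-1β at 0.1 ng/ml in serum-free medium for 24 h, and the unstimulated cells received no cytokine (0 ng/ml). A legend of the study gives a lower IL-1β concentration than the labels and the methods, and the labelled value is the one printed here. TNF and IL17A, each at 10 ng/ml with 4 libraries, were used where IL-1β was set beside another inflammatory cytokine. The labels do not say whether the replicates were separate cultures, so the p-values measure the spread between these libraries, which may be technical.

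IL-1β binds the receptor IL1R1 with its partner IL1RAP, and the adaptor MYD88 and the IRAK kinases then activate NF-κB and the AP-1 family of transcription factors. In fibroblasts this pathway is known for inducing chemokines that attract neutrophils, colony-stimulating factors, matrix proteases and prostaglandin synthesis. Accessible regions away from promoters often act as enhancers, where such factors bind DNA. SRF and TEAD factors are known, in contrast, for driving contractile and matrix genes of fibroblasts and smooth muscle cells.

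A set of 5 of the 12 raised peaks named below, chosen among those with a match, is shown for the strings that these factors recognise. The stretches are printed 5′ to 3′ from the hg38 forward strand around the matches. Of those 12 peaks 9 held the NF-κB consensus, 4 the AP-1 string and 1 neither. The peak with neither string was the largest gain, the CXCL8 exon peak. Capitals mark each match to the NF-κB consensus or to the AP-1 string TGANTCA, both searched on both strands. The NF-κB consensus was held by 8.50% of all tested peaks of 501 bases and the AP-1 string by 25.7%. The LINC00477 stretch (chr12:24719624-24719744) and the MIR4642 stretch (chr6:44735714-44735834) held both kinds of match, the STX8 stretch (chr17:9389187-9389307) and the ADTRP stretch (chr6:11825055-11825175) held NF-κB matches alone, and the ETV4 stretch (chr17:43608599-43608719) held an AP-1 match alone. In the STX8 stretch each capital run of 11 bases is a pair of overlapping NF-κB matches.
LINC00477: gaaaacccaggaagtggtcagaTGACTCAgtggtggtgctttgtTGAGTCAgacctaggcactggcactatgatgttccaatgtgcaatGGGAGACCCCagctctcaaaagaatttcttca
MIR4642: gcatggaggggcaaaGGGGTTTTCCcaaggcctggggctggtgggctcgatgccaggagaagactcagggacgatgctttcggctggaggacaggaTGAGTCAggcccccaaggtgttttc
STX8: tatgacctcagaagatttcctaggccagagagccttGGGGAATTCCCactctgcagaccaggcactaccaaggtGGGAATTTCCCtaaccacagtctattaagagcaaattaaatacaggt
ADTRP: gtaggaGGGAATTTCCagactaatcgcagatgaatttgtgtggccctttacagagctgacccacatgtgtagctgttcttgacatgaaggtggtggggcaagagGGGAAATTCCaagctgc
ETV4: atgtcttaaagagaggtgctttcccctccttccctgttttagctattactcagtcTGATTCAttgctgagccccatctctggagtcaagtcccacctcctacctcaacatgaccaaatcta

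A pair of the peaks with the largest losses is shown for the TEAD string GGAATG, held by 28.8% of all tested peaks, and for the SRF consensus, held by 3.21%, with capitals marking the matches on either strand. Of the 12 lowered peaks named below 7 held the TEAD string and 1 the SRF consensus, the ADAMTS9-AS1 peak shown here. The ADAMTS9-AS1 stretch (chr3:64548535-64548655) held a match to each, and the NCKAP5-AS2 stretch (chr2:133264109-133264229) held a TEAD match.
ADAMTS9-AS1: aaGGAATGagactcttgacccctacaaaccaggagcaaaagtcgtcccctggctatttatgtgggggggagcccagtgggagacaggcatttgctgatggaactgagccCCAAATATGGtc
NCKAP5-AS2: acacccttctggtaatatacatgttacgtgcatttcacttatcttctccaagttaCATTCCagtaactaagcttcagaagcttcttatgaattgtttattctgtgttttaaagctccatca

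The promoters of 5 neutrophil chemokine genes are shown because a peak over each of their starts rose. They are RefSeq sequences (GRCh38.p14) of the gene's strand, 150 bases long, from 200 to 51 bases before the start, with NF-κB and AP-1 matches in capitals. They lie at chr4:73869193-73869342 (CXCL1), chr4:74099246-74099395 (CXCL2), chr4:74038740-74038889 (CXCL3), chr4:73836478-73836627 (CXCL6) and chr4:73740369-73740518 (CXCL8). CXCL1, CXCL2, CXCL3 and CXCL6 each held a run of 11 bases in which the NF-κB consensus is read on both strands. CXCL8 held an AP-1 match and no exact NF-κB match. Only exact matches are marked, so an unmarked stretch may still hold a site. In CXCL8 the unmarked tggaatttcc departs from the NF-κB consensus at its first base alone. The same window held the NF-κB consensus in 3.24% and the AP-1 string in 4.06% of 35116 RefSeq promoters.
CXCL1: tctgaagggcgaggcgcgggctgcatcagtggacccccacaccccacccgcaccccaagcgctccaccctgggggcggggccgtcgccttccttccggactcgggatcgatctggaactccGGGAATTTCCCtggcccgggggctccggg
CXCL2: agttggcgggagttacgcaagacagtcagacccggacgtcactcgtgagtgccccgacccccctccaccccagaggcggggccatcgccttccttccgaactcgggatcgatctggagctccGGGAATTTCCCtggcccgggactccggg
CXCL3: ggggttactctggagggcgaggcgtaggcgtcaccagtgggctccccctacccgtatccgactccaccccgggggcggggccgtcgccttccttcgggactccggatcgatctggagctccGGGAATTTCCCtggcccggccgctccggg
CXCL6: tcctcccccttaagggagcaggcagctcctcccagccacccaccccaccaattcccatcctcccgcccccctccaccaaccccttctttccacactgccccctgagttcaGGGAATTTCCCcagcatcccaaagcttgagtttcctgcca
CXCL8: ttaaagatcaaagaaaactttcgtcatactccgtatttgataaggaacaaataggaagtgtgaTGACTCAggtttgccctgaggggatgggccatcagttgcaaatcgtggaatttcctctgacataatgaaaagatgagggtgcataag

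The deposited values are bases of coverage summed over each peak, and the depth of a library is given by its total over all peaks. The totals lay between 328.6 and 524.4 Mb in the unstimulated and between 329.7 and 519.8 Mb in the IL1B libraries. Levels below are coverage per Mb of the library total after a composition factor. Log2 levels of libraries in the same group correlated across peaks with r between 0.848 and 0.882 (12 pairs), and those of libraries in different groups with r between 0.813 and 0.869 (16 pairs), a description in which peaks are not independent. The fibroblast label was checked at promoters: all 12 fibroblast markers had a peak at their start, with COL1A2 at 38.2, VIM at 25.3 and PDGFRB at 15.9 per Mb in unstimulated cells. Of the 8 epithelial markers only EPCAM and ELF3 had such a peak, and the summed level of those peaks was 0.531 to 2.63 in unstimulated and 7.13 to 10.9 in IL1B libraries, in the latter mostly ELF3. The 8 endothelial promoters summed to between 4.66 and 9.10 in unstimulated and between 5.85 and 8.30 in IL1B libraries, with PECAM1 and VWF near the level of 3 reads. Among 8 leukocyte markers PTPRC, the defining marker, had no peak at its start, and CD68, which other cells also use, accounted for most of a sum of 30.2 to 35.8 in unstimulated and 34.6 to 46.9 in IL1B libraries. What part these markers have in the results was not tested.

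IL-1β changed the accessibility of 13001 peaks, 3.19% of those tested, at an adjusted p under 0.05 (limma, Benjamini-Hochberg). Accessibility rose at 5865 peaks (1.44%) and fell at 7136 (1.75%), so that 45.1% of the called peaks were raised (95% Wilson interval 44.3 to 46.0%, counting error only). Raised peaks went from a median level of 2.45 per Mb to 6.24, with a median log2 change of 1.15, whereas lowered peaks went from 7.91 to 3.60 with a median of -0.98. The largest gains were larger than the largest losses: 207 raised peaks passed a log2 change of 2 and 12 passed 3, against 52 and 0 lowered peaks. In 224 raised peaks all unstimulated libraries lay at or under the level that 3 reads allow, and in 97 lowered peaks all IL1B libraries did. The groups did not overlap at 87.3% of raised and 81.9% of lowered peaks, against 7.62% of all tested peaks. In bulk libraries, a larger share of cells with an open region and a more open region in every cell cannot be told apart.

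**Figure D1:**
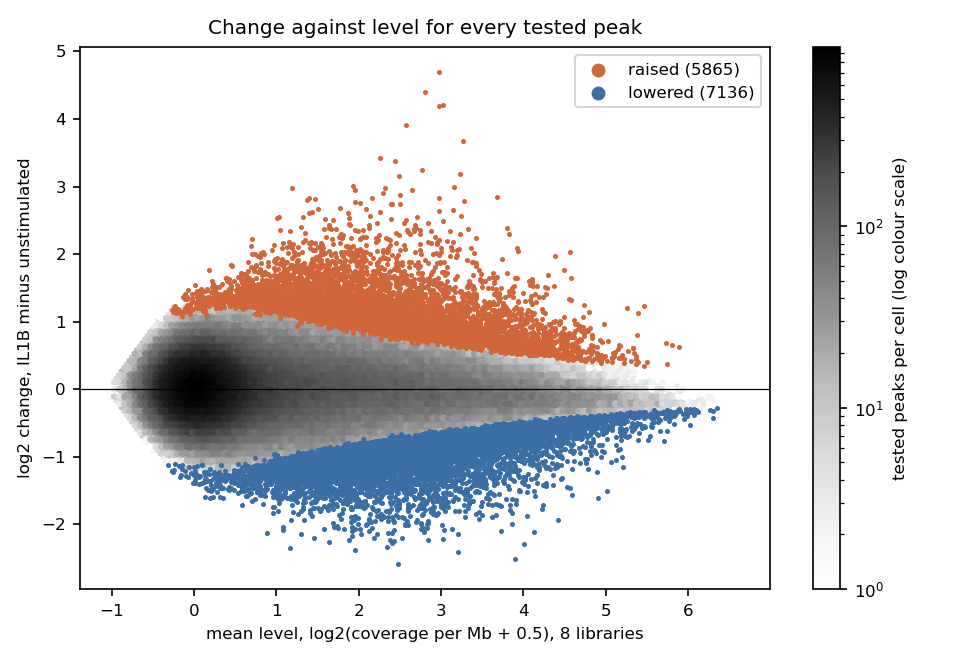
Each tested peak by its mean level over the 8 libraries (x axis, log2 of coverage per Mb plus 0.5) and its log2 change (y axis, IL1B minus unstimulated), with grey cells shaded by the number of peaks on a log colour scale. The 5865 raised peaks (orange) reach a log2 change of 4.70 at middle levels, and the 7136 lowered peaks (blue) reach -2.59.

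The CXCL8 gene, which encodes the main chemokine that attracts neutrophils, held the peak with the largest gain. At chr4:73742531-73743031, in an untranslated part of an exon, coverage in the unstimulated libraries was 0, 0, 0.0485 and 0.243 per Mb, and in the IL1B libraries it was 22.0, 11.6, 11.8 and 13.4 per Mb. The groups stood far apart, and since every unstimulated library was under the level of 3 reads the mean was at least 26.8-fold higher with IL-1β (log2 change 4.70 ± 0.39, SE, n = 4 per group, adjusted p = 1.6e-23). Other CXCL8 peaks followed it, and with a single peak kept per gene the next was chr17:43608344-43608844, a distal peak assigned to ETV4, which encodes an ETS transcription factor, and lying in an intron of DHX8. Its coverage was 1.76, 0.74, 0.23 and 1.23 per Mb in unstimulated libraries and 18.2, 13.6, 17.5 and 19.6 per Mb with IL-1β (log2 change 3.68 ± 0.33, adjusted p = 6.0e-20). The stretch printed for LINC00477, a non-coding RNA gene, belongs to chr12:24719339-24719839, which went from 1.06, 1.78, 3.01 and 0.36 to 13.3, 15.1, 19.8 and 16.5 per Mb (log2 change 3.19 ± 0.31). Every IL1B library lay above every unstimulated library in these peaks.

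ELF3, an ETS factor best known from epithelial cells, was raised at its start. The peak chr1:202010210-202010710, in an untranslated part of an exon, measured 0.172, 1.31, 0.451 and 0.764 per Mb without and 7.48, 6.75, 9.19 and 9.74 per Mb with IL-1β (log2 change 2.98 ± 0.37, adjusted p = 2.6e-11). The other epithelial marker with a peak, EPCAM, measured 0.508 ± 0.547 and 0.783 ± 0.341 per Mb (SD, n = 4). The remaining raised peaks among the 12 named, 1 per gene, carried the deposited names LINC01589, STX8 (a vesicle fusion protein), ADTRP, TTLL4 (a tubulin-modifying enzyme), DNMT3L (a cofactor of DNA methylation), SMAP2, MIR4642 and RIPOR2, with log2 changes between 2.90 and 3.38. DNMT3L was at 0 in all 4 unstimulated libraries and between 2.39 and 5.03 per Mb with IL-1β, at least 6.52-fold higher. These names are those of the authors' table and do not show which gene a peak acts on: the LINC01589 peak lay within FBLN1, the DNMT3L peak within GATD3, and the LINC00477 and MIR4642 peaks had their nearest coding starts 157 kb (SOX5) and 348 kb (CDC5L) away.

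The peak with the largest loss, chr2:133263836-133264336 at NCKAP5-AS2, fell from 9.21, 12.6, 7.10 and 7.28 per Mb to 1.33, 0.821, 1.55 and 0.643 per Mb (log2 change -2.59 ± 0.22, adjusted p = 6.4e-22). The intronic peak chr3:64548185-64548685, named ADAMTS9-AS1 and lying in the ADAMTS9 matrix protease gene, fell from 20.1, 28.5, 29.4 and 21.3 to 4.31, 4.42, 4.11 and 2.91 per Mb (log2 change -2.51 ± 0.16, adjusted p = 4.5e-36). A distal peak at CD200 (chr3:112390957-112391457), a surface ligand that restrains myeloid cells, fell from 30.4, 27.9, 26.6 and 20.1 to 4.71, 4.80, 6.06 and 4.16 per Mb (log2 change -2.29 ± 0.15, adjusted p = 2.9e-35). All 3 had unstimulated levels several times those with IL-1β in every library. The other lowered peaks of the rule lay at COG7, a Golgi trafficking subunit, TSC1, an inhibitor of mTOR signalling, TULP3, PLB1, THBS1, FAM92A and 3 uncharacterised LOC genes, with log2 changes between -2.23 and -2.40. Among them, LOC100506403 at chr21:35326583-35327083, lay within RUNX1, which encodes a transcription factor, and fell from 5.97 ± 0.60 to 0.81 ± 0.48 per Mb.

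**Figure D2:**
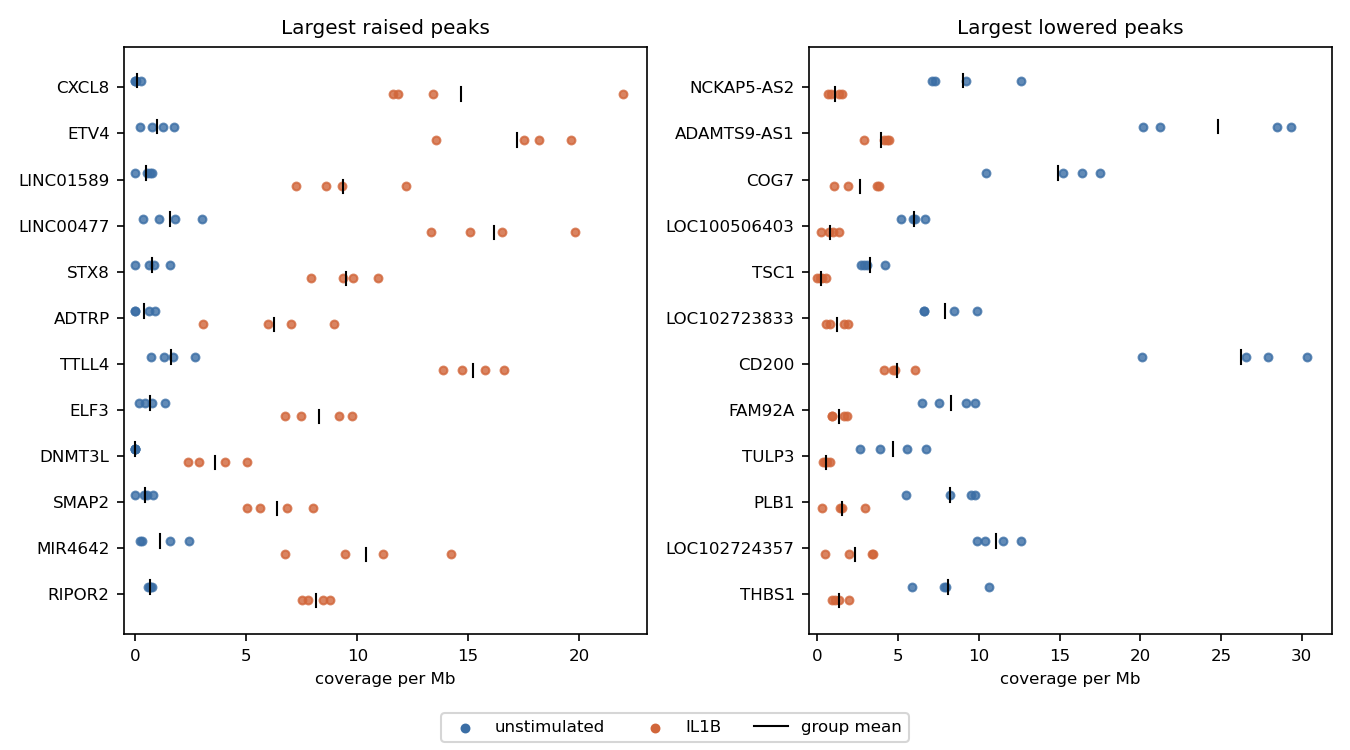
Coverage per Mb (x axis) in each of the 4 unstimulated (blue) and 4 IL1B (orange) libraries for the 12 raised peaks (left) and 12 lowered peaks (right) of largest change, with black ticks at group means. No IL1B point overlaps the unstimulated points of its peak, a property the rule required, and the CXCL8 and DNMT3L peaks start at or near 0.

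Changes clustered along the genome at a few genes. Of the 23383 genes named in the table, 3869 had a raised peak, 4420 a lowered peak and 1454 both, and 8.27% of raised and 8.04% of lowered peaks lay in runs of at least 3 called peaks of the same direction with gaps of at most 10 kb. The CXCL8 run held 16 raised peaks over 26.9 kb of chr4, out of 22 tested there, and its summed coverage was 18.5, 19.6, 19.3 and 18.1 per Mb without and 177, 132, 158 and 139 per Mb with IL-1β. Within 100 kb of the CXCL8 start, 24 of 62 peaks rose and 0 fell. The neighbouring CXCL2 run held 13 raised peaks over 29.4 kb, out of 22 tested there, and its sum went from 44.2 ± 2.8 to 108 ± 13.2 per Mb. Since the runs were found from the calls, their sums are descriptions.

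THBS1, the gene of thrombospondin 1, an extracellular protein that activates latent TGF-β, held the run with the most lowered peaks. All 30 peaks tested between chr15:39579624 and 39600312, from just before the gene to its end, were lowered, with log2 changes of up to -2.23. Their summed coverage was 307, 335, 316 and 258 per Mb in unstimulated libraries and 130, 86.9, 110 and 110 per Mb with IL-1β. A run of 22 lowered peaks over 37.8 kb, out of 45 tested there, covered COL1A1, the gene of the main fibrillar collagen chain, and SGCA. Its sum went from 318.5 ± 33.7 to 196.5 ± 25.4 per Mb. A run of 14 out of 38 tested covered CARMN, the host of the smooth muscle microRNAs MIR143 and MIR145, and went from 179 ± 17.7 to 69.8 ± 5.6 per Mb. Runs of lowered peaks also covered TAGLN (12 of 13 tested), TPM1 (11 of 21) and the coagulation initiator F3 (9 of 12). Others covered CTGF, now called CCN2 and a target of TEAD factors (9 of 10), and the nuclear receptor gene NR4A1, where the table gives the name ATG101 (8 of 9).

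**Figure D3:**
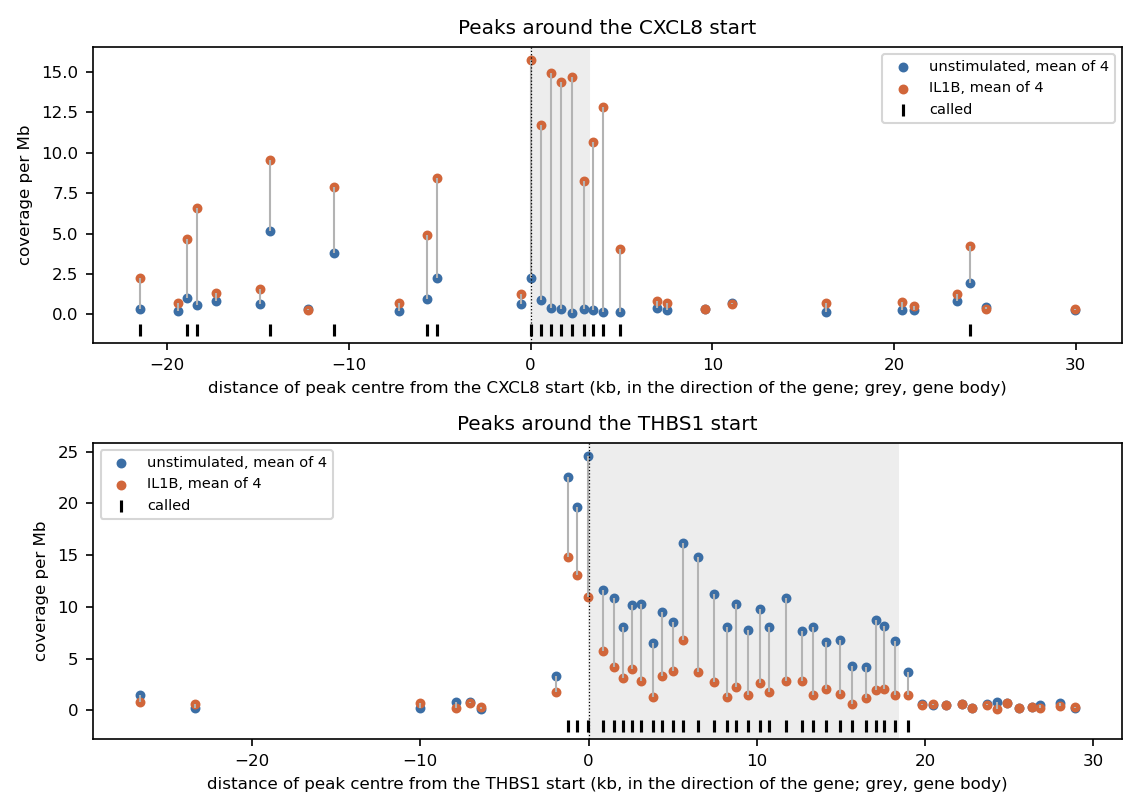
Mean coverage per Mb (y axis) of every tested peak within 30 kb of the CXCL8 (top) and THBS1 (bottom) starts, by distance of the peak centre in kb along the gene (x axis), for unstimulated (blue) and IL1B (orange) libraries, with grey lines joining the means of a peak, grey shading over the gene and black ticks under called peaks. The 9 called peaks from the CXCL8 start to 4.85 kb beyond it had means of 0.073 to 2.24 per Mb without and 4.03 to 15.7 per Mb with IL-1β, and the 30 called peaks at THBS1 were all lower with IL-1β.

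The 8 genes with most raised peaks were led by CXCL8 with 20 of 44 and by MIR549A with 20 of 33 (median log2 change 1.41). The span from the first to the last raised MIR549A peak overlapped CEMIP, the gene of a hyaluronan-degrading protein. WTAP followed with 19 of 186 (median 1.50), and the span of its raised peaks overlapped SOD2, the mitochondrial superoxide dismutase. NAMPT, an enzyme of NAD synthesis, had 15 of 127, GLIS3-AS1 had 13 of 78, the cytokine gene LIF 13 of 48, LINC02539, whose nearest coding start in its run was TNFAIP3, 12 of 42, and LOC101929935 11 of 233. The 8 genes with most lowered peaks were THBS1 with 35 of 132, COL1A1 with 14 of 29, the collagen gene COL6A3 with 12 of 142, the smooth muscle genes TAGLN with 12 of 18 and TPM1 with 12 of 63, F3 with 11 of 76, ZFP36L1, which encodes a protein that destabilises mRNAs, with 11 of 309, and CDC42EP3, a cytoskeleton regulator, with 10 of 108. Genes with more tested peaks had more chances to be counted.

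Of all tested peaks 1.44% rose and 1.75% fell, and of those within 1 kb of a transcript start 1.19% rose and 1.39% fell, shares against which the counts of each gene list are to be read. Calls also depended on coverage: of peaks with a mean under 0.5 per Mb 0.0405% rose and 0.0183% fell, and of those over 8 per Mb 5.15% and 9.14%. Among promoter-class peaks of at least 4 per Mb 1.50% rose and 2.60% fell. Several lists had strong start peaks, with unstimulated medians of 19.3 per Mb for contractile genes and 11.4 for collagen and matrix genes. No share matched for the coverage of a list was taken. Of 19 IL-1 receptor and signalling genes with a peak at the start, 1 rose and 0 fell: IL33, an alarmin of the IL-1 family, went from 0.356, 0.185, 0.445 and 1.07 to 1.24, 1.74, 2.66 and 2.53 per Mb (log2 change 1.36 ± 0.39, adjusted p = 0.022). The IL1R1 promoter peak measured 8.25 ± 1.06 and 8.55 ± 2.09 per Mb (SD, n = 4, adjusted p = 0.98), and that of IL1RAP 22.1 ± 2.6 and 23.7 ± 4.2 per Mb (adjusted p = 0.89). Of all peaks assigned to these genes 28 of 508 rose and 3 fell, against 1.44% and 1.75% of all tested peaks. An intronic peak at -25.4 kb from the IL1R1 start went from 2.00 ± 0.76 to 5.79 ± 1.36 per Mb (adjusted p = 0.0013). Of 22 promoters of NF-κB subunits and inhibitors 1 rose, BIRC3, an inhibitor of cell death and a known NF-κB target, from 5.47, 6.01, 6.64 and 7.59 to 17.3, 14.1, 17.7 and 16.7 per Mb (log2 change 1.30 ± 0.20, adjusted p = 1.0e-07), and 31 of 632 peaks assigned to the list rose and 4 fell.

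The neutrophil chemokines rose at most of their promoters. Of 7 with a peak at the start 5 rose and 0 fell, with a list median log2 change of 0.71 against 0.0065 over all tested peaks, and 50 of 174 peaks assigned to the 8 genes rose and 0 fell, against 1.44% raised among all tested peaks and 1.19% within 1 kb of a start. The CXCL8 promoter, printed above, went from 3.04, 2.09, 2.10 and 1.74 to 17.9, 12.0, 14.7 and 18.2 per Mb (log2 change 2.57 ± 0.30, adjusted p = 5.9e-13). The CXCL1 promoter went from 11.4, 11.8, 12.0 and 10.9 to 27.6, 22.5, 27.4 and 25.7 per Mb (log2 change 1.13 ± 0.16, adjusted p = 2.2e-08). In neither did the groups overlap. CXCL2, CXCL3 and CXCL6 rose by 0.54 ± 0.16, 0.64 ± 0.17 and 0.98 ± 0.24 on the log2 scale, and CXCL5 measured 4.94 ± 1.03 and 8.43 ± 2.10 per Mb without passing the test (adjusted p = 0.083). Without IL1B replicate 1 the called promoters of the list numbered 3. Of 14 other chemokine promoters, CXCL10, which attracts T cells, rose from 0.963 ± 0.626 to 3.88 ± 0.38 per Mb, whereas CCL11 and CCL26, the eotaxins that attract eosinophils, fell. CCL11 went from 7.52, 9.38, 9.21 and 4.60 to 2.19, 1.61, 2.44 and 2.33 per Mb (log2 change -1.59 ± 0.24, adjusted p = 1.0e-07).

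CSF3 led the cytokine promoters, of which 5 of 24 rose and 1 fell, against 1.19% and 1.39% of peaks within 1 kb of a start. CSF3, the growth factor of neutrophils, went from 2.08, 0.781, 1.23 and 2.47 to 10.7, 9.48, 12.4 and 7.96 per Mb (log2 change 2.37 ± 0.32, adjusted p = 6.1e-10). CSF2, IL32, INHBA, the activin subunit, and LIF, an IL-6 family cytokine, rose by 1.21 ± 0.36, 1.14 ± 0.26, 0.81 ± 0.19 and 0.69 ± 0.20 on the log2 scale. GDF15, a stress-induced member of the TGF-β superfamily, fell by 0.86 ± 0.20 on the log2 scale. The matrix-degrading proteases MMP3 and MMP10 rose (2 of 21 promoters), MMP3 from 5.30 ± 0.46 to 14.3 ± 1.6 per Mb, and so did ICAM1, the leukocyte adhesion molecule, SOD2 and the complement gene C3 (3 of 20 promoters), C3 from 3.04 ± 1.16 to 10.9 ± 2.1 per Mb. Among 15 AP-1 and C/EBP factor promoters 1 rose, CEBPB (adjusted p = 0.046), and its call was lost in 8 of 21 alternatives, GC correction and a pseudocount of 0.1 included (adjusted p of up to 0.28). No promoter of 15 prostaglandin genes, 16 interferon response genes or 12 universal fibroblast genes passed the test in either direction.

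Of 19 promoters of contractile genes 7 fell and 0 rose, with a list median log2 change of -0.46, and 51 of 572 peaks assigned to the list fell and 6 rose, against 1.75% lowered and 1.44% raised among all tested peaks. ACTA2, smooth muscle actin, went from 20.0, 20.8, 24.7 and 11.8 to 8.23, 7.04, 7.50 and 7.72 per Mb (log2 change -1.24 ± 0.16, adjusted p = 3.7e-11). ACTG2, the enteric smooth muscle actin, went from 22.6, 23.6, 25.4 and 21.8 to 14.0, 8.71, 9.25 and 10.8 per Mb (log2 change -1.11 ± 0.14, adjusted p = 1.5e-10). The groups did not overlap in either. TPM2, TAGLN, TPM1, LMOD1 and CALD1, which bind or regulate actin, fell by between 0.50 and 0.63 on the log2 scale. Without IL1B replicate 2 the lowered promoters numbered 5, with LMOD1 (adjusted p = 0.15) and CALD1 (adjusted p = 0.16) lost. The collagen and matrix list had 1 lowered promoter of 27, SPARC, from 43.1 ± 2.5 to 30.4 ± 3.3 per Mb, while 73 of 1550 peaks assigned to it fell and 19 rose, against the same shares, and the COL1A1 promoter measured 23.8 ± 2.6 and 19.2 ± 1.1 per Mb (adjusted p = 0.30). Among 30 fibroblast transcription factors 1 rose, SOX9, and 2 fell, GLI3 and NR2F1, a count of raised promoters that is near the 1.19% of peaks within 1 kb of a start and no result about the list. Among 12 fibroblast markers PDGFRA and THY1 fell, PDGFRA from 12.4 ± 2.5 to 7.33 ± 1.90 per Mb. Of peaks within 1 kb of a start 1.39% fell, and of promoter-class peaks of at least 4 per Mb 2.60%.

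The 37 called promoters of the lists held their direction in every alternative but not always their call. Leaving out 1 library at a time ended no call at 18 of them. At 7 a single library did so: unstimulated replicate 4 for CXCL3 (adjusted p = 0.11), IL1B replicate 1 for CXCL6 (0.050), unstimulated replicate 2 for GDF15 (0.051), IL1B replicate 3 for MMP10 (0.054), and IL1B replicate 2 for LMOD1, CALD1 and PDGFRA (0.067). At the other 12 several libraries did so, namely 6 of 8 for ICAM1, GLI3 and NR2F1, 5 for IL33, CXCL2, LIF, CEBPB, THY1 and CD68, 4 for CSF2 and SOX9, and 2 for TPM1, with adjusted p reaching 0.32 at CSF2. Other settings ended 6 calls: GC correction, with or without a replicate block, and a pseudocount of 0.1 did so at ICAM1 and CEBPB, a pseudocount of 0.1 at IL33, a pseudocount of 2 at CSF2, and loess offsets at GLI3 and NR2F1.

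**Figure D4:**
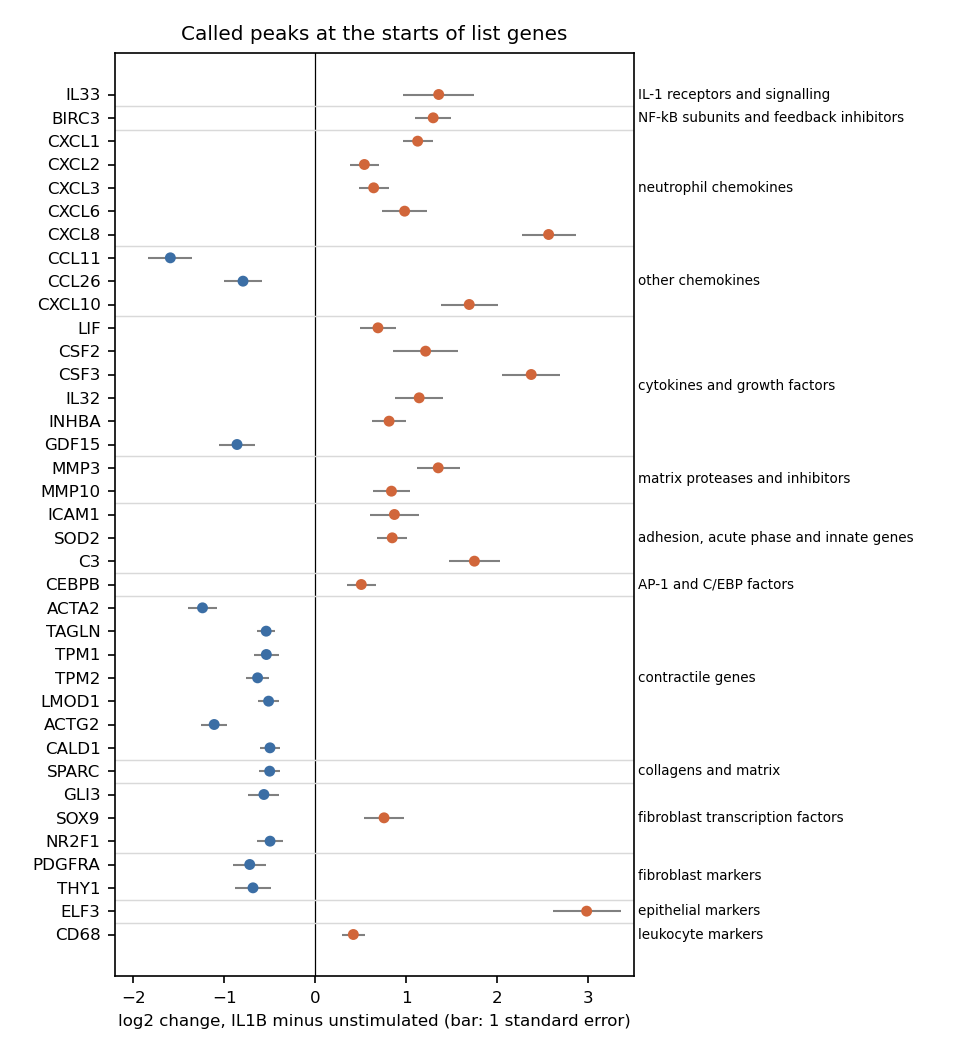
The log2 change, IL1B minus unstimulated, with 1 standard error (bars) of the 37 called peaks lying within 1 kb of a list gene's start, grouped by list. Most called chemokine and cytokine promoters lie to the right of 0, led by CXCL8 at 2.57 and CSF3 at 2.37, the epithelial marker ELF3 lies farthest to the right at 2.98, and all 7 called contractile promoters lie to the left of 0.

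At several known IL-1 target genes, peaks away from the start passed the test where the promoter peak did not. At PTGS2, the inducible cyclooxygenase, the promoter peak measured 20.0 ± 1.4 and 20.6 ± 2.9 per Mb (adjusted p = 0.97). A peak 10.0 kb downstream of the start, chr1:186670181-186670681, went from 5.98, 11.5, 8.60 and 10.1 to 33.2, 36.7, 39.7 and 40.6 per Mb (log2 change 2.03 ± 0.23, adjusted p = 5.3e-14). Within 100 kb of the start 6 of 42 peaks rose and 1 fell, where 1.44% and 1.75% of all tested peaks did, the shares that hold for each window here. At IL6 the promoter measured 10.3 ± 0.64 and 11.4 ± 2.5 per Mb (adjusted p = 0.88), whereas a peak 5.7 kb away rose from 0.908 ± 0.574 to 5.28 ± 0.86 per Mb, and 6 of 68 peaks rose and 1 fell. At NFKBIA, which encodes the inhibitor IκBα, the promoter measured 12.8 ± 1.7 and 15.7 ± 2.0 per Mb (adjusted p = 0.54), and a peak 29.0 kb away rose from 0.83 ± 0.52 to 7.0 ± 1.4 per Mb, with 8 of 87 raised and 0 lowered. TNFAIP3, the ubiquitin-editing inhibitor A20, had 9 of 113 peaks raised and 0 lowered, and a peak 16.5 kb from its start went from 0.282 ± 0.312 to 4.10 ± 0.77 per Mb.

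The same windows were counted around 5 other genes. Around MMP1, the interstitial collagenase, 6 of 47 peaks rose and 0 fell, led by a peak at -84.6 kb from the start, near MMP12, that went from 1.50 ± 0.82 to 10.6 ± 1.2 per Mb. Around LIF 17 of 98 rose and 2 fell, and around IL1R1 6 of 114 rose and 1 fell. Around ICAM1 3 of 123 rose and 3 fell, shares of 2.44% each way that lie near the 1.44% and 1.75% of all tested peaks. Around ACTA2 7 of 83 fell and 1 rose, against the same shares. An intronic peak 19.4 kb from the ACTA2 start, named ACTA2-AS1, went from 4.72, 6.98, 6.71 and 4.11 to 0.814, 0.828, 1.15 and 0.863 per Mb (log2 change -2.09 ± 0.27, adjusted p = 6.6e-11), and no libraries of the groups overlapped there. A window near a raised gene may hold other genes, and which gene a peak serves was not tested.

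Strings of the inflammatory factors were more frequent in raised than in lowered peaks, given here as counts with no test. The NF-κB consensus was held by 19.4% of raised and 4.83% of lowered peaks, against 8.50% of all tested peaks, and by 45.9% of the 207 raised peaks past a log2 change of 2. The AP-1 string was held by 57.4% of raised and 24.9% of lowered peaks, against 25.7% of all. Among the same 207 peaks its share was lower than among all raised peaks, at 39.6%. Peaks with both made up 1.83% of all, 9.17% of raised and 0.883% of lowered peaks, and 7.24% of them were raised, against the 1.44% of all peaks. The TEAD string GGAATG showed the other pattern, at 28.3% of raised and 45.7% of lowered peaks against 28.8% of all, and the SRF consensus was held by 2.69% and 6.00% against 3.21%. Raised and lowered peaks differed less from each other for the remaining strings. C/EBP (TTGCNNAA) was held by 30.1% of raised and 30.5% of lowered peaks against 25.8% of all, and RUNX (TGTGGT) by 36.8% and 34.0% against 30.6%. The IRF consensus was held by 7.59% and 8.32% against 9.13%, and CTCF (CCACNAGG) by 7.79% and 6.73% against 8.17%. Called peaks also had higher coverage than other peaks, and among peaks of at least 4 per Mb the AP-1 string was held by 33.8% of all and 62.9% of raised, and the TEAD string by 29.1% of all and 45.8% of lowered peaks. At that coverage NF-κB was held by 9.50% of all and 17.3% of raised peaks. RUNX was held there by 27.3% of all, 36.9% of raised and 34.1% of lowered peaks, and C/EBP by 23.0%, 29.8% and 30.3%. Matches to different strings may overlap, and neither raised nor lowered peaks all held them: 32.4% of raised peaks held neither NF-κB nor AP-1.

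**Figure D5:**
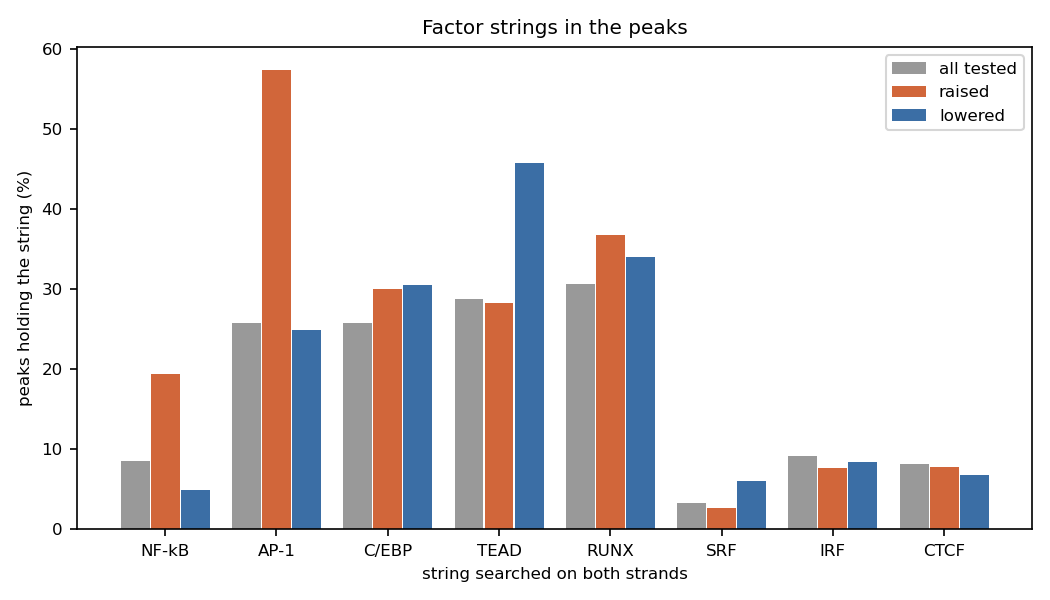
The percentage of peaks of 501 bases (y axis, from 0) holding each factor's string on either strand (x axis), for all tested (grey), raised (orange) and lowered (blue) peaks. NF-κB and AP-1 bars stand highest in raised peaks (19.4% and 57.4%), and TEAD and SRF bars in lowered peaks (45.7% and 6.00%).

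Peaks of each class were counted above a common minimum of coverage, with no matching of coverage between classes and no test. Among peaks of at least 4 per Mb, 1.50% of promoter-class peaks rose and 2.60% fell, against 7.91% and 10.4% of distal, 6.07% and 9.39% of intronic, and 3.25% and 5.32% of exonic peaks. The share of a library's coverage in each class is a different measure, in which gains and losses within a class can cancel. The promoter share was 20.4, 20.4, 20.5 and 20.0% without and 20.5, 19.2, 19.7 and 19.5% with IL-1β, a mean of 20.3 ± 0.2% and 19.7 ± 0.6% (SD, n = 4, 2-sided exact permutation p = 0.11, adjusted over the 4 classes 0.27). The exact p-values of the distal, intronic and exonic shares were 0.14, 0.20 and 0.51, where the smallest possible with 4 against 4 is 0.029. Without IL1B replicate 1 the promoter share differed by -0.87 percentage points (exact permutation p = 0.029) and the intronic share by 0.36 points (exact permutation p = 0.029), both unadjusted and the smallest p that 3 against 4 allows.

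Against TNF at 10 ng/ml, IL-1β at 0.1 ng/ml left 887 peaks higher (0.218%) and 4493 lower (1.1%), and against IL17A at 10 ng/ml it left 3186 higher (0.782%) and 5534 lower (1.36%). The doses differ, and all these comparisons share the IL1B libraries with the comparison to unstimulated cells. The split against TNF depended on scaling: 16.5% of its called peaks were higher with IL-1β, but 27.0% with library totals, 24.2% with median-of-ratios factors and 27.9% with loess offsets. The split against IL17A moved too, from 36.5% higher with IL-1β to 43.4% with library totals and 45.3% with median-of-ratios factors. It was 46.2% with loess offsets and 29.8% with a pseudocount of 0.1. The number called against TNF was 2986 without TNF replicate 2, 3500 without IL1B replicate 2 and 3501 without IL1B replicate 4. The 887 higher peaks became 370 without TNF replicate 2, 459 without IL1B replicate 4 and 568 without TNF replicate 3, and the 4493 lower peaks became 2616 without TNF replicate 2 and 2894 without IL1B replicate 2. Against IL17A, the 3186 higher peaks became 2003 without IL1B replicate 4. At raised peaks the median level was 2.45 per Mb in unstimulated cells, 6.24 with IL-1β, 6.30 with TNF and 3.37 with IL17A, and at lowered peaks it was 7.91, 3.60, 4.94 and 6.88 per Mb. These medians are descriptions, since the IL1B libraries chose the peaks.

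The CXCL8 exon peak reached 14.7 ± 4.9 per Mb with IL-1β and 17.3 ± 2.6 with TNF (adjusted p = 0.91), but 0.400 ± 0.377 with IL17A (adjusted p = 3.0e-18 against IL-1β). ELF3 and CSF3 were higher with IL-1β than with TNF: ELF3 measured 8.29 ± 1.41 against 1.95 ± 0.47 per Mb (adjusted p = 4.0e-04), and CSF3 measured 10.2 ± 1.9 against 3.97 ± 0.46 per Mb (adjusted p = 0.015). The PTGS2 peak 10.0 kb from the start was also higher, at 37.5 ± 3.4 against 14.8 ± 3.1 per Mb with TNF (log2 difference 1.33 ± 0.23) and 18.8 ± 5.5 with IL17A (1.02 ± 0.23). In contrast, the ICAM1 promoter measured 6.71 ± 2.09 with IL-1β and 17.3 ± 1.0 with TNF (adjusted p = 3.0e-04), the IL32 promoter 5.35 ± 0.88 and 14.1 ± 0.5 (adjusted p = 2.6e-04), and BIRC3 16.5 ± 1.6 and 27.9 ± 1.2 (adjusted p = 0.020).

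Contractile promoters were lower with IL-1β than with TNF at 7 of 19 genes and higher at 0, against 1.1% lower and 0.218% higher among all tested peaks. The list median difference from TNF was -0.51 on the log2 scale. Against IL17A they were lower with IL-1β at 5 of 19, where 1.36% of all tested peaks were. ACTA2 measured 7.62 ± 0.49 per Mb with IL-1β, 15.1 ± 3.4 with TNF and 15.7 ± 4.4 with IL17A (adjusted p = 8.0e-06 and 2.1e-06 against IL-1β). ACTG2 measured 10.7 ± 2.4, 20.8 ± 3.8 and 22.6 ± 4.8 per Mb (adjusted p = 5.8e-07 and 5.5e-09). With the main scaling 18 of the 19 promoters lay below TNF and 18 below IL17A, and with library totals alone 17 and 17 did. The list median difference with library totals was -0.44 from TNF and -0.30 from IL17A. The 7 and 5 called genes stayed lower, but the main scaling had chosen them, so this is no separate support. Whether their calls held with library totals was not tested. CCL11 was lower with IL-1β, at 2.14 ± 0.37 per Mb, than with TNF, at 6.64 ± 1.26 (adjusted p = 1.0e-05). The CD200 peak measured 4.93 ± 0.80 per Mb with IL-1β against 17.6 with TNF and 18.5 with IL17A (adjusted p = 1.1e-20 and 1.3e-22), and its mean in the other 10 groups lay between 17.5 and 40.6 per Mb. The ADAMTS9-AS1 peak was low with both IL-1β (3.94 ± 0.70 per Mb) and TNF (4.46 per Mb, adjusted p = 0.84).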

How the data were processed

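Bulk ATAC-seq was measured in 44 libraries. Per the methods, the authors used the ENCODE ATAC-seq pipeline (version 2.2.3, with MACS2 and hg38) and deposited, for a shared set of peaks, the base coverage of each peak in each library. This coverage signal is bases and not whole reads, so no count model was used, and no column of the table was left out. Coverage was divided by the library total and a trimmed composition factor (30% of log ratios and 5% of means trimmed), and log2(coverage per Mb + 0.5) was fitted with limma 3.58.1 in R 4.3.3 over all 44 libraries, with Benjamini-Hochberg adjustment. The pseudocount makes changes of low peaks too small. A filter on a log2 mean of -3 left out 209 peaks. The level that counts of 0 allow was set at 3 reads of 75 bases, and intervals cover counting error only. On simulated data, 70% of peaks raised 4-fold were recovered, with the changed peaks drawn from those with a mean over 1 per Mb. That share does not hold for smaller changes or for peaks of lower coverage. Named peaks were the 12 largest changes in each direction, 1 per gene, among called peaks with a mean of at least 1 per Mb and no overlap between groups. The 8 genes with most called peaks each way were also named. Promoter peaks of list genes lay within 1 kb of a GENCODE 44 start. Members and lists were chosen with earlier results of these data known. Scaling, pseudocount, filter, weights, GC correction, replicate block and leaving out libraries were varied.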

Additional observations from a re-analysis of the deposited data

Results flagged for a closer look

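Of 124 groups of 4 libraries checked at named and called promoter peaks, 5 held a library whose gap to the nearest other exceeded Dixon's 95% critical value, and chance gives about 1 in 20. The CCL26 promoter measured 5.45 per Mb in IL1B replicate 1 against 3.80 to 4.02 in the other IL1B libraries. The LIF promoter measured 11.9 per Mb in IL1B replicate 4 against 10.8 to 11.0 in the others. The GDF15 promoter measured 4.36 per Mb in IL1B replicate 3 against 5.12 to 5.18. The CEBPB promoter measured 19.0 per Mb in unstimulated replicate 3 against 11.4 to 12.5 in the other unstimulated libraries. The LMOD1 promoter measured 17.4 per Mb in IL1B replicate 2 against 27.5 to 29.4, and its call was lost without that library.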

How the results depend on the processing

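Raised peaks numbered 4489 to 7164 and lowered peaks 6741 to 8920 over the alternatives that kept all libraries. With only the 8 libraries compared in the fit, 7984 rose and 7883 fell. When 1 library was left out, raised peaks numbered 4203 to 5337 and lowered peaks 5189 to 7057. The 24 named peaks kept their call and direction in every alternative that tested them, 20 for DNMT3L and 21 for each of the others. The raised share of called peaks, 45.1%, was 48.8% with library totals, 49.9% with median-of-ratios factors, 50.9% with loess offsets, 49.0% with a composition factor from peaks covered in every library (chosen after seeing the data), 40.0% and 49.8% with pseudocounts of 0.1 and 2, 43.9% with a mean of at least 1 per Mb, 50.3% with only the 8 libraries compared, and 39.2 to 47.6% when 1 library was left out, so which direction held more peaks depended on scaling. The cause was not tested. The 5380 peaks called against TNF became 8348 with only the 8 libraries compared and 2986 to 5062 when 1 library was left out, and the 8720 against IL17A 6116 to 8083. Without 1 library the difference in coverage share ranged from -0.87 to -0.44 points for promoters and from 0.13 to 0.36 points for intronic peaks. Replicate numbers are shared by the groups without a stated pairing, and same-numbered libraries did not deviate together (r from -0.011 to 0.009). With a replicate block 5998 peaks rose and 7361 fell, and with a GC correction as well 5996 and 7509. Peaks near the level of 3 reads limit what can be called lowered. Where a library was left out, the fit still pooled the spread over the other groups.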
